A study of Mus musculus with 3 samples.

Results

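Peaks of RNA polymerase II (RNAP2) and of Med12 were described around 7 genes of the Hedgehog response in the developing hand, the receptor genes Ptch1, Smo and Hhip, the transcription factor genes Gli1, Gli2 and Gli3, and Hand2. A peak was taken when it overlapped the gene or came within 100 kb of the gene start on either side, with genes as in GENCODE vM1 on the mouse assembly mm9. All 7 symbols were found among 22367 protein-coding genes, and their windows held 95 of the 20479 RNAP2 peaks and 22 of the 10634 Med12 peaks in the lists. Of these, 63 RNAP2 peaks and 6 Med12 peaks were those of Gli3 alone, so that 32 and 16 remained for the other 6 genes.

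Chromatin came from cells of mouse distal forelimbs at embryonic stage E12.5, immunoprecipitated in 1 library with an antibody to RNAP2 and in 1 with an antibody to Med12, and there was 1 input library without antibody, whose signal was not analysed here. The stage is that of the sample labels and of the study's methods, while the series text says E11.5. The labels name no strain, genotype or treatment that would separate the 3 samples. Forelimbs were dissected and dissociated with collagenase and no cell type was sorted, so a peak can come from any cell type of the tissue. RNAP2 is the enzyme that transcribes protein-coding genes. Med12 is a subunit of Mediator, the complex that links transcription factors bound at enhancers to RNAP2 at promoters. The study mapped both to find candidate limb enhancers of HoxA genes, together with published data on other enhancer marks. It then examined the candidates by chromatin contacts and in transgenic embryos, which was not done for the sites described here.

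Hedgehog ligands bind Patched receptors, which otherwise keep the membrane protein Smoothened inactive, and active Smoothened changes how Gli proteins are processed. In the limb bud, Shh is made in the posterior margin, Gli3 is mainly a repressor where Shh is absent, and Ptch1, Hhip and Gli1 are known transcriptional targets of the pathway. Hand2 encodes a basic helix-loop-helix factor that acts upstream of Shh in the posterior limb bud and is opposed there by Gli3.

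Starts of marker genes were checked for RNAP2 within 1 kb, which 40% of all protein-coding genes had. Of 6 distal limb mesenchyme genes, 6 had such a peak, among them Hoxa13 with a score of 1726 and Msx1 with 3100. It was also present at 3 of 3 proximal genes, with scores from 43 for Meis2 to 581 for Meis1. The presence of a peak therefore does not tell distal from proximal limb. The scores differed, with a median of 1855 at the distal genes and 192 at the proximal genes. Every distal score was above every proximal one. The name distal forelimb rests on the sample labels. None of 5 limb ectoderm, 4 blood and 3 neural genes had such a peak. Among muscle genes Pax3 had one (1 of 4, score 283), and among endothelial genes Kdr (1 of 4, score 148). The score of a peak is 10 times the negative log10 of the p-value that the peak caller gave it, and it rises with read depth and with the width of the peak. For this reason RNAP2 and Med12 scores were each ranked in their own list only. The lowest score in both lists was 40 and the medians were 123 for RNAP2 and 56.8 for Med12. With 1 library per antibody and no read counts in the lists, no value has a replicate error, the depth behind a single peak is unknown, and no test was made.

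RNAP2 was found at the outermost start of 6 of the 7 genes and Med12 at 2. Within 1 kb of the gene start, 6 of 7 genes had an RNAP2 peak, the exception being Gli1, against 40% of all protein-coding genes. A Med12 peak was present at 2 of 7 starts, those of Gli2 and Hand2, against 8.2% of all genes, and the same 2 of 7 had both, against 7.58%. The Med12 count depended on the start used. It was 4 of 7 when any coding transcript start counted (8.98% of all genes) and 6 of 7 within 5 kb (10.9%). The RNAP2 scores at the 6 starts ran from 59.3 for Hhip to 3100 for Hand2. The other 4 were 119.9 for Ptch1, 1368 for Smo, 2637 for Gli3 and 2834 for Gli2. The median over the 8953 genes with an RNAP2 peak at the start was 386, so Hhip and Ptch1 lay below it and the other 4 genes above it. Hand2 shared the value of 3100 with many peaks, since 311 RNAP2 peaks have exactly this score and only 18 exceed it.

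**Figure D1:**
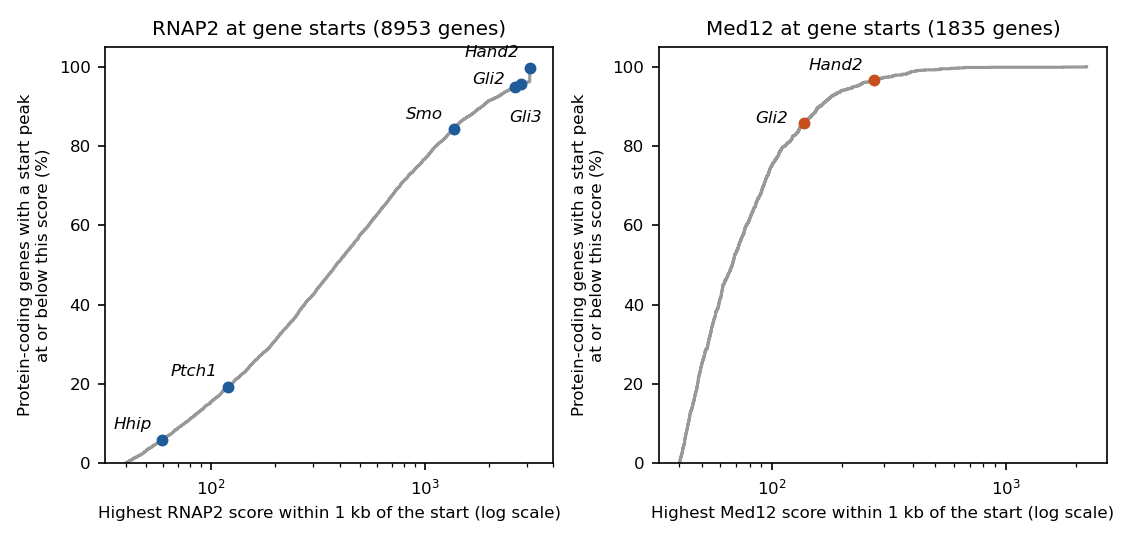
Cumulative share of protein-coding genes (%, vertical axis) against the highest peak score within 1 kb of the gene start (log axis), for the 8953 genes with an RNAP2 peak there (left) and the 1835 with a Med12 peak (right). Points mark the named genes; Hhip and Ptch1 lie in the lower part of the RNAP2 curve, Smo, Gli3, Gli2 and Hand2 in the upper part, and Gli2 and Hand2 in the upper part of the Med12 curve.

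Away from starts, the 7 genes fell into groups with many, few or no peaks. A peak was called distal when it lay more than 1 kb from every annotated transcript start. Distal RNAP2 peaks were present for 5 of 7 genes (40.7% of all genes) and distal Med12 peaks for 4 of 7 (34.9% of all genes). A distal RNAP2 peak that overlapped a Med12 peak by at least 1 bp is called a shared distal site, and 3 of 7 genes had 1 or more (12.8% of all genes), namely Gli3 with 3, Ptch1 with 2 and Hand2 with 1. Smo and Gli1 had no distal peak of either list. In the 7 windows together there were 81 distal RNAP2 peaks, of which 62 belonged to Gli3, and 15 distal Med12 peaks, of which 6 belonged to Gli3.

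Ptch1 encodes the Shh receptor that represses Smoothened. It spans chr13:63610261-63674474 on the minus strand, 64.2 kb. Its RNAP2 signal was not strongest at the outermost start. The peak there, at chr13:63673396-63675173 over the start of transcript Ptch1-203, had a score of 119.9, which placed it at rank 7226 of the 8953 genes with a start peak, and no Med12 peak lay within 1 kb of it. A wider peak at chr13:63663677-63668385, 4709 bp long and scored 1660.1, covered the starts of the protein-coding transcripts Ptch1-201 and Ptch1-204, which lie 7646 bp and 8840 bp inside the gene. Med12 peaks with scores of 143 at chr13:63667266-63668425 and 55.0 at chr13:63665489-63666733 overlapped it. Both lists thus placed their peaks at the internal starts, and RNAP2 alone was found at the outer one. The 150 bases before each of these 2 starts are shown 5′ to 3′ on the minus strand because the peaks separate them, with CpG dinucleotides in capitals.

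Ptch1-203, chr13:63674475-63674624: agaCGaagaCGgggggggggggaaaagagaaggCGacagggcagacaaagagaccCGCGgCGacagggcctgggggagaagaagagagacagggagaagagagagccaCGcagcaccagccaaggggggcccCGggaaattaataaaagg

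Ptch1-201, chr13:63666829-63666978: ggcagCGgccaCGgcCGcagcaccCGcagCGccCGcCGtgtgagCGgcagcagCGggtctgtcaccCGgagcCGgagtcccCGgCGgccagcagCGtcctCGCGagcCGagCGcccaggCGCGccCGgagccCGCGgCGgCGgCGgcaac

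The stretch before Ptch1-201 holds 26 CpG and the one before Ptch1-203 holds 8. Over the wider interval from 250 bases before to 50 after the start, the observed over expected CpG ratio was 0.97 at Ptch1-201 and 0.99 at Ptch1-203, and the median over all protein-coding starts was 0.53. The 2 starts therefore differed in their peaks and little in this ratio.

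Close to the internal starts, Ptch1 had its first shared distal site, which adjoins the RNAP2 peak over those starts that ends at chr13:63668385. The RNAP2 peak at chr13:63668424-63670493 had a score of 499 and was overlapped over 1165 bp by a Med12 peak at chr13:63668566-63669730 with a score of 65.6, centred 5.33 kb downstream of the outer start. The Med12 peak with a score of 143 reached into the same RNAP2 peak by 2 bp, which is the only overlap of so few bases here. The second shared site lay upstream of the gene, between genes. Its RNAP2 peak at chr13:63728198-63729163 had a score of 85.4, and its Med12 peak at chr13:63728398-63729374 had a score of 114, centred 54.4 kb upstream. These 2 sites are shown by 200 bases at the middle of the overlap, on the plus strand, with the one motif that was found in capitals, an E-box in its reverse complement CAGATG.

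Ptch1 5.33 kb downstream, chr13:63669048-63669247: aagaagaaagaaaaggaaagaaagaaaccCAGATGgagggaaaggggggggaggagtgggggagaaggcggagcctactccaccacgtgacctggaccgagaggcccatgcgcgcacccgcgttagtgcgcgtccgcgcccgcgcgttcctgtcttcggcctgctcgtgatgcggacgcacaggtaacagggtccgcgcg

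Ptch1 54.4 kb upstream, chr13:63728680-63728879: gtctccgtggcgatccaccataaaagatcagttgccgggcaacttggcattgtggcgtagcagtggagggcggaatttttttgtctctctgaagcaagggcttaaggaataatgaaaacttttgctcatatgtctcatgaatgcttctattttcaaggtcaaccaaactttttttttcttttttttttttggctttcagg

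RNAP2 peaks without Med12 followed further inside Ptch1. There were 7, of which 5 overlapped an exon and 2 lay wholly within introns, centred between 28.5 kb and 54.0 kb downstream of the start, with scores from 47.1 to 399, the highest at chr13:63625077-63627232. A further RNAP2 peak with a score of 71.5 lay 69.98 kb upstream. RNAP2 peaks covered 33.6% of Ptch1, and among the 2440 protein-coding genes of 50 to 100 kb, whose median was 1.02%, 11 genes including Ptch1 reached this share. The length class was chosen after the value was seen. In 5 segments of equal length from start to end of the gene, the share covered was 61.2%, 0%, 54.0%, 38.2% and 14.5%. With 10 distal RNAP2 peaks, Ptch1 was among 206 of the 22367 genes (0.921%) with as many or more, and with 2 shared sites it was among 698 (3.12%). When the start interval was widened from 1 kb to 5 kb, Ptch1 had 8 distal RNAP2 peaks and 1 shared site.

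Few matches to the Gli motif lay under a peak, and these were at Ptch1. Gli proteins bind DNA at sites close to GACCACCCA, which was searched as these letters on both strands. The 7 windows held 21 matches, 6 of them at Ptch1, 6 at Gli2, 4 at Gli1, 2 each at Hhip and Gli3, 1 at Smo and none at Hand2. Only 2 lay under an RNAP2 peak, both at Ptch1, and 1 of these also lay under a Med12 peak. They are shown with 25 bases on each side and the match in capitals, each on the strand that reads GACCACCCA.

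Ptch1 internal match, chr13:63667718-63667776, plus strand: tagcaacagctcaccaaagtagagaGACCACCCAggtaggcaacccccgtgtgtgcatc

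Ptch1 outer match, chr13:63674748-63674806, minus strand: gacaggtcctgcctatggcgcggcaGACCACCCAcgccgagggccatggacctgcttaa

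The internal match was under the RNAP2 peak with a score of 1660.1 and the Med12 peak with a score of 143. The outer match lay 303 bp upstream of the Ptch1-203 start under the RNAP2 peak with a score of 119.9. In windows of 1000 bp at peak centres, the motif was present in 1 of 95 RNAP2 peaks of the 7 genes (1.05%) and in 0.732% of the whole RNAP2 list, and in 1 of 22 Med12 peaks (4.55%) and 0.781% of the whole Med12 list. The RNAP2 match in these windows was the outer one, as the internal match lay outside the central 1000 bp of its RNAP2 peak. The share of all peaks with a match anywhere under them was not computed. A match is a description of the letters and does not show that a factor was bound.

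Smo encodes Smoothened, the membrane protein that passes the signal on. It spans chr6:29685694-29711365 on the plus strand, 25.7 kb. A single RNAP2 peak at chr6:29685008-29686669 with a score of 1368 covered its start and ranked 1404th of 8953. The only other RNAP2 peak of its window, with a score of 722, covered starts of the next gene Ahcyl2. No Med12 peak lay in the window, and the nearest, with a score of 133, was 311609 bp from the start. Smo had RNAP2 at its promoter and no peak of either list elsewhere in its gene or within 100 kb, apart from the start of its neighbour.

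Hhip encodes a membrane protein that binds and sequesters Hedgehog ligands. It spans chr8:82490014-82581905 on the minus strand, 91.9 kb. The RNAP2 peak at its start, chr8:82580773-82582055, had a score of 59.3 and ranked 8416th of 8953. It was the weakest start peak of the 6 genes. One distal RNAP2 peak lay in an intron at chr8:82506014-82506978 with a score of 96.3. Med12 peaks lay at chr8:82577843-82578663, 3.65 kb downstream of the start, with a score of 53.6, and at chr8:82492250-82493154 near the end of the gene, with a score of 57.4. None of the Med12 peaks overlapped an RNAP2 peak. RNAP2 peaks covered 2.28% of Hhip, a share that 628 of the 2440 genes of its length class reached.

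Gli1 encodes a transcriptional activator whose own expression follows Hedgehog signalling. It spans chr10:126766945-126778645 on the minus strand, 11.7 kb. It was the one gene of the 7 without RNAP2 at the start, and no RNAP2 peak touched the gene. The nearest, with a score of 637, lay 29114 bp from the start at the start of Mars. The other 4 RNAP2 peaks of the window also lay at starts of other genes. They were those of Dctn2 with a score of 578, of Ddit3 and Mbd6 with 919, and of R3hdm2 with 126 and 113. Med12, in contrast, had a peak inside Gli1 at chr10:126775732-126777419 with a score of 114. Its nearer edge was 1226 bp from the gene start and 954 bp from the start of the shorter transcript Gli1-202, and its centre lay in an intron. No RNAP2 peak overlapped it. The other Med12 peak of the window, with a score of 67.5, overlapped the RNAP2 peak at Ddit3 and Mbd6.

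Gli2 encodes the main activator among the Gli proteins, and Gli3 their main repressor in the limb. Both genes are long and both had an RNAP2 peak among the highest at their start. Gli2 spans chr1:120730709-120950196 on the minus strand, 219 kb. Its start peak at chr1:120947945-120951524 had a score of 2834 and ranked 389th of 8953. Med12 peaks at chr1:120949616-120951625, with a score of 137, and at chr1:120948647-120949589, with a score of 58.6, lay within it or across its edge. The higher of these placed Gli2 at rank 262 of the 1835 genes with Med12 at the start. Gli3 spans chr13:15555068-15821859 on the plus strand, 267 kb. Its start peak at chr13:15554175-15560984 was 6810 bp wide, had a score of 2637 and ranked 451st. No Med12 peak lay within 1 kb of the Gli3 start, and one with a score of 62.6 lay 4536 bp downstream at chr13:15559604-15560498, inside the same RNAP2 peak. The 150 bases before the starts of Gli1, Gli2 and Gli3 are shown 5′ to 3′ on the strand of the gene, with CpG in capitals, to set the start without RNAP2 beside those with high scores.

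Gli1-201, chr10:126778646-126778795: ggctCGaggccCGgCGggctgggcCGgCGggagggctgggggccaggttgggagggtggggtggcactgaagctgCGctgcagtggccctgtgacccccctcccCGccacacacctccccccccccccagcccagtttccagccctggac

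Gli2-001, chr1:120950197-120950346: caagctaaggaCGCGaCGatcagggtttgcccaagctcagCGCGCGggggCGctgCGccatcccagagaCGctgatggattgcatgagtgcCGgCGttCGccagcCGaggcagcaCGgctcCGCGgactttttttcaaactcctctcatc

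Gli3-003, chr13:15554918-15555067: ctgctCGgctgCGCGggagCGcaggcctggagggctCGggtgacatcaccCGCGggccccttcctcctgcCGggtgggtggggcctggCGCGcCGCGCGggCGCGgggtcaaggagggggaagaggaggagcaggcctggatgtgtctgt

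These stretches hold 7 CpG at Gli1, 16 at Gli2 and 15 at Gli3. The observed over expected ratio was 0.64 at Gli1, 0.83 at Gli2 and 0.82 at Gli3, each above the median of all starts (0.53). At the other starts it was 0.64 for Smo, 0.76 for Hhip and 0.90 for Hand2, so the Smo start, with RNAP2, and the Gli1 start, without it, had nearly the same ratio. None of the gene starts held the Gli motif within 250 bases before and 50 after, where 0.206% of all protein-coding starts had it.

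Downstream of their starts, Gli2 and Gli3 differed. Gli2 had 5 distal RNAP2 peaks with scores from 41.2 to 62.2, of which 1 lay 5.66 kb downstream of the start and 4 were centred 179.8 kb or more downstream, and it had no distal Med12 peak. The highest, at chr1:120740449-120742122, was centred 209 kb downstream. RNAP2 peaks covered 3.57% of Gli2. Gli3 had 62 RNAP2 peaks over its length, covering 154527 bp or 57.9% of the gene. The 61 that did not lie at the start comprised 52 within introns and 9 that overlapped an exon. The widths of these 61 peaks ran from 936 bp to 13085 bp with a median of 1825 bp.

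Few genes of this length were covered to the same extent. Among 2401 protein-coding genes of 100 kb or more, only Vcl (59.3%) was covered more than Gli3, followed after it by Tcf4 (57.3%), Cdh11 (53.5%) and Zmiz1 (41.9%). The median of these genes was 0.563%, or 1.28% for the 1068 with RNAP2 at the start. A cover of 25% or more was found for 0.875% of them, 21 genes, and of the 2 genes here of that length, Gli3 and Gli2, it was reached by Gli3. In the number of RNAP2 peaks per 100 kb of gene, 23.2, Gli3 ranked first of the 2401. The 62 distal RNAP2 peaks of its window were the most of any of the 22367 windows. Windows of long genes are longer (367 kb for Gli3, 319 kb for Gli2 and 200 kb for each of the other 5). Both numbers count peaks and not separate sites, since 37 of the 61 gaps between RNAP2 peaks in Gli3 were under 1000 bp. Joining the peaks across those gaps left 25 runs, and the ranks were not repeated with joined peaks. Genes of this length, the share of 25% and the measure itself were chosen after the values were seen.

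**Figure D2:**
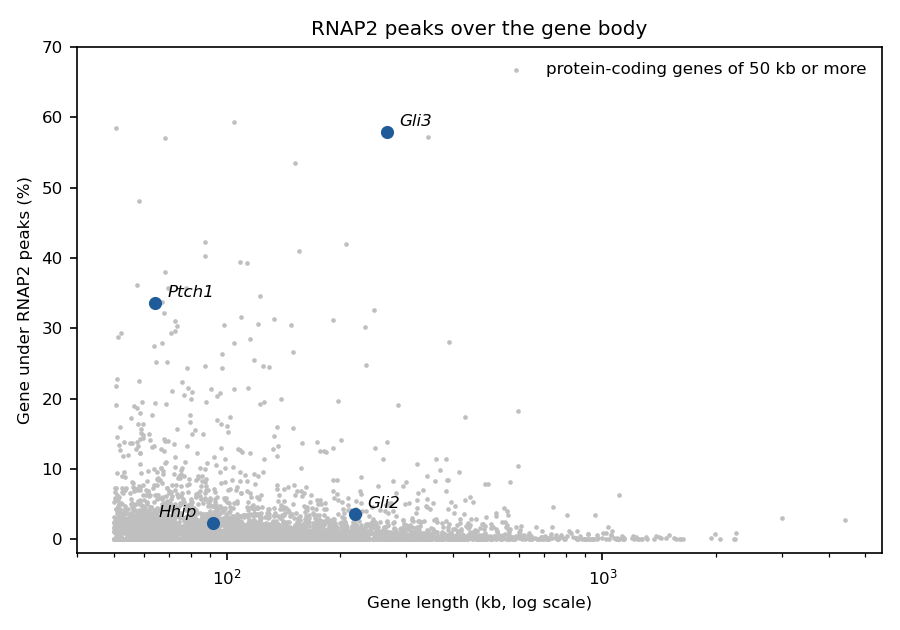
Share of each gene under RNAP2 peaks (%) against gene length (kb, log axis) for protein-coding genes of 50 kb or more (grey), with Gli3, Gli2, Ptch1 and Hhip marked. Gli3 at 57.9% and Ptch1 at 33.6% stand above nearly all genes of their length, while Gli2 at 3.57% and Hhip at 2.28% lie among them.

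The peaks of Gli3 were not spread evenly. From start to end, 5 segments of equal length held 5, 13, 16, 12 and 15 RNAP2 peaks by their centre and were covered to 21.4%, 51.1%, 69.5%, 78.8% and 68.9%. After the start peak there was a gap of 18904 bp, the longest in the gene, while the median gap was 729 bp. The highest peak beyond the start lay at the end of the gene over an exon, at chr13:15816105-15821688, with a score of 1079. The next were 852 at 236 kb and 686 at 200.2 kb downstream. Of the 61 peaks beyond the start 9 had a score under 50, 36 had 100 or more and 19 had 200 or more.

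**Figure D3:**
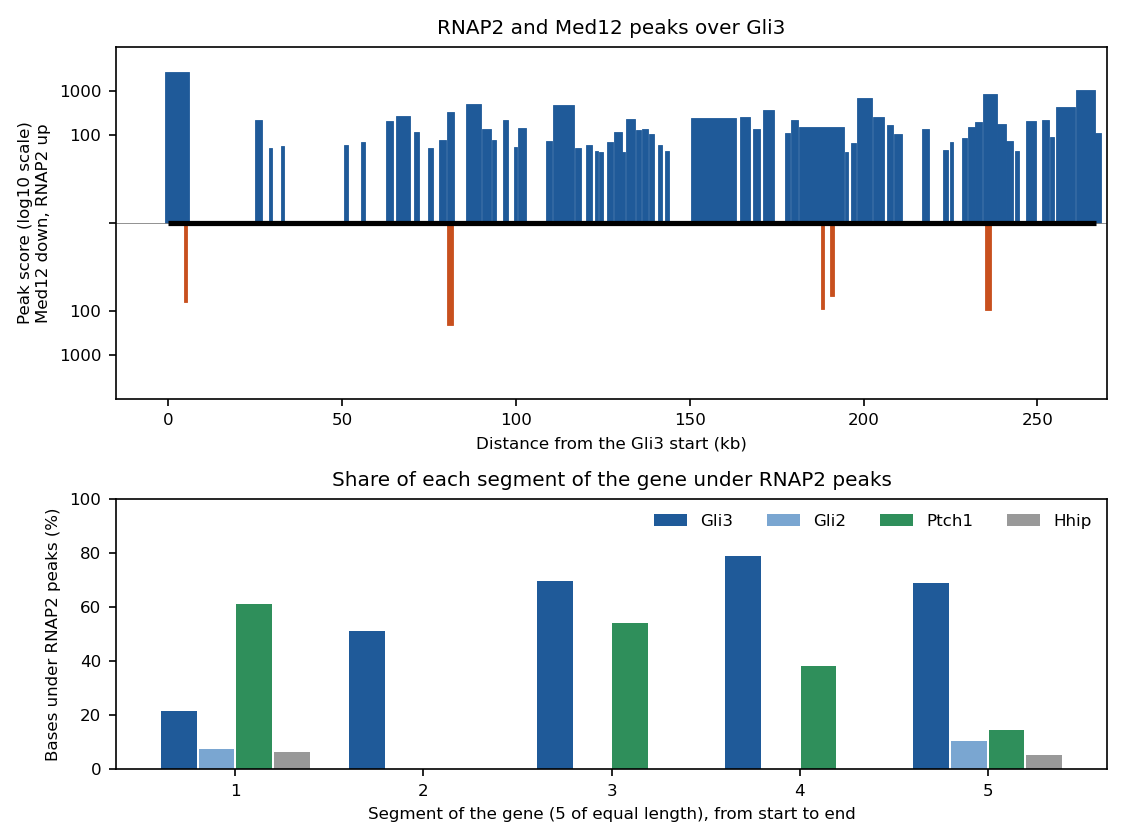
Top, RNAP2 peaks (up) and Med12 peaks (down) over Gli3 by distance from its start (kb), with scores on log10 scales and the gene in black. Bottom, share of bases under RNAP2 peaks (%) in each of 5 equal segments of Gli3, Gli2, Ptch1 and Hhip from start to end; Gli3 is covered to 21.4% in its first segment and to between 51.1% and 78.8% in the other 4.

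Med12 covered 2.33% of Gli3 in 5 peaks, and 3 distal RNAP2 peaks were shared with it. The strongest Med12 peak of the gene, with a score of 207, lay 81.1 kb downstream at chr13:15635361-15636953, ranked 538th of the 10634 Med12 peaks, and was contained in an RNAP2 peak at chr13:15635237-15637210 with a score of 338. A second site, 236 kb downstream, combined an RNAP2 peak at chr13:15789376-15793334 (score 852) with a Med12 peak at chr13:15790048-15791613 (score 96.6). The third was an RNAP2 peak of 12944 bp at chr13:15736448-15749391 with a score of 148, which contained Med12 peaks with scores of 89.7 at chr13:15742698-15743697 and 46.5 at chr13:15745489-15746645. The Med12 peaks of all 3 sites lay within introns, as did the RNAP2 peaks of the first and the second, while the RNAP2 peak of the third also overlapped an exon. The first and the second are shown by 200 bases at the middle of the overlap, on the plus strand, where none of the motifs searched was found.

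Gli3 81.1 kb downstream, chr13:15636057-15636256: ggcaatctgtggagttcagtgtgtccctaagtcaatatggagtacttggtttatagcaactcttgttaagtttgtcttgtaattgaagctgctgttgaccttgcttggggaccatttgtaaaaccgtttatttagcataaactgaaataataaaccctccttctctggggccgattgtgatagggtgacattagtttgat

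Gli3 236 kb downstream, chr13:15790730-15790929: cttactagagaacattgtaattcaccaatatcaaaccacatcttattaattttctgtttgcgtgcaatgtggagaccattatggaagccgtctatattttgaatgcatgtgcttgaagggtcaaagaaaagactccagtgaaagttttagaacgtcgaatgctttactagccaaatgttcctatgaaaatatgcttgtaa

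Upstream of Gli3, each list had 1 peak and they lay apart. The Med12 peak at chr13:15537984-15538631 had a score of 61.6 and was centred 16.8 kb upstream, and the RNAP2 peak, with a score of 55.1, was centred 53.5 kb upstream. The genes most like Gli3 in the numbers of RNAP2 peaks, Med12 peaks and shared sites, among those with RNAP2 and without Med12 at the start, were Ebf1 with 63, 2 and 2, Zfhx3 with 47, 1 and 1, and Tns3 with 39, 5 and 4. Gli3 itself had 63, 6 and 3. The summed differences from Gli3 over these 3 numbers were 5, 23 and 26.

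Hand2 had the strongest peaks of both lists among the 7 genes. It spans chr8:59799780-59803314 on the plus strand, 3.54 kb. The RNAP2 peak at its start, chr8:59797498-59802828, was 5331 bp wide and had the score of 3100, and the Med12 peak there, chr8:59797701-59800388, had a score of 272 and ranked 63rd of the 1835 genes with Med12 at the start. RNAP2 peaks covered 94.8% of this short gene. The next RNAP2 peak, at chr8:59803012-59808745 with a score of 1569.8, spanned the end of the gene and was overlapped by a Med12 peak at chr8:59803239-59804363 with a score of 65.3, centred 4.02 kb downstream of the start. This was its shared distal site, and with a start interval of 5 kb Hand2 had none. The start and this site are shown 5′ to 3′ on the plus strand, which is that of the gene, with CpG in capitals before the start and no motif found at the site.

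Hand2-201 start, chr8:59799630-59799779: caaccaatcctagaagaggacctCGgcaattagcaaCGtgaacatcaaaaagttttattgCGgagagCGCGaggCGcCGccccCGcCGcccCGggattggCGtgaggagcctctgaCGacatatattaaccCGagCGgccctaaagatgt

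Hand2 4.02 kb downstream, chr8:59803701-59803900: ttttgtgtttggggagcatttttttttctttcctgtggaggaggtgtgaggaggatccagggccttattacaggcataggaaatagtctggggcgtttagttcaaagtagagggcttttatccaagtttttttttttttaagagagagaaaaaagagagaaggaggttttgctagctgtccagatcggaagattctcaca

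A further RNAP2 peak, with a score of 679 at chr8:59811731-59813574, lay at the start of the neighbouring transcript 5033428I22Rik. It was overlapped by a distal Med12 peak with a score of 147 at chr8:59812247-59814836, more than 1 kb from that start. The remaining peaks of the Hand2 window were found in 1 list only. RNAP2 had 2, with scores of 52.4 at 8.62 kb upstream and 76.6 at 20.1 kb downstream (chr8:59819359-59820438). Med12 had 3, with scores of 42.7 at 82.9 kb upstream, 55.6 at 63.0 kb upstream (chr8:59736356-59737210) and 49.1 at 89.2 kb downstream. With 5 distal Med12 peaks, Hand2 was among 237 of the 22367 genes (1.06%) with as many or more, and Gli3, with 6, among 143 (0.639%). Hand2 had 3 of these at a score of at least 50, 1 at 100 and 2 in a window of 50 kb. Gli3 had 5, 1 and 6 under the same settings.

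How far the lists coincided away from starts differed by list. Of the 81 distal RNAP2 peaks of the 7 genes, 6 overlapped Med12 (7.41%, 95% Wilson interval 3.44% to 15.2%), while 24.96% of the 10692 distal RNAP2 peaks of the whole list did. The 7-gene share rests on Gli3, where 3 of 62 overlapped, and without Gli3 it was 3 of 19 (15.8%, 5.52% to 37.6%). Of the 15 distal Med12 peaks, 9 overlapped RNAP2 (60%, 35.7% to 80.2%), against 32.5% of 8567 in the whole list. The RNAP2 peak was one at a start for 2 of the 9, those 4.98 kb downstream of the Gli3 start and at 5033428I22Rik. Gli3 held 5 of the 9 overlaps, from 6 distal Med12 peaks, and 2 of these lay in 1 RNAP2 peak of 12944 bp. RNAP2 peaks covered 57.9% of Gli3, and the overlap that such cover alone would give was not computed. Without Gli3, 4 of 9 distal Med12 peaks overlapped RNAP2 (44.4%, 18.9% to 73.3%). The intervals cover counting error only, and peaks of 1 gene are not independent of each other. At the 6 shared sites the RNAP2 scores ran from 85.4 to 1569.8, with a median of 418, and the median over the 2669 shared sites of the whole list was 137.

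**Figure D4:**
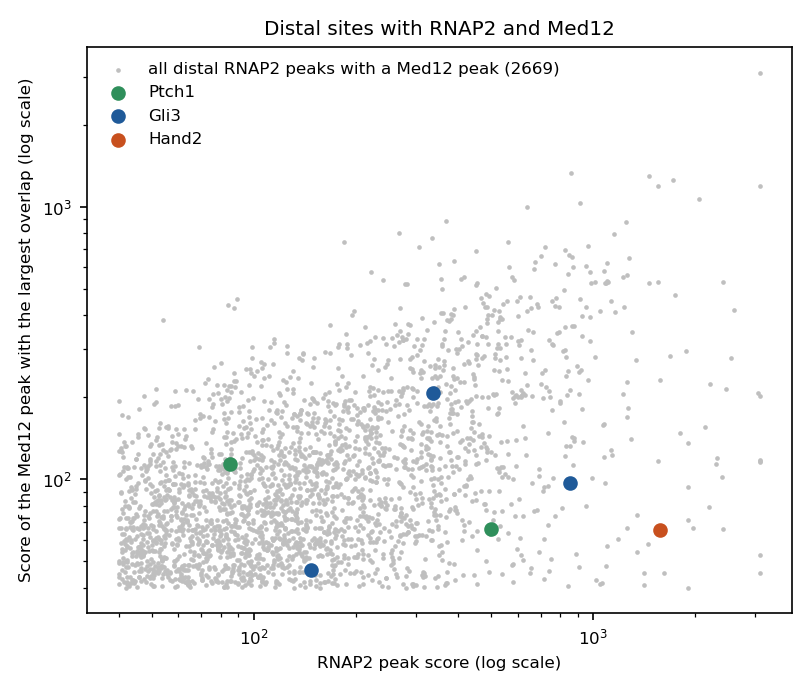
Score of the RNAP2 peak against score of the Med12 peak with the largest overlap, both on log axes, at the 2669 distal RNAP2 peaks with Med12 (grey) and at the 6 of Ptch1, Gli3 and Hand2. The 6 sites lie within the cloud of all sites, and the Hand2 site combines the highest RNAP2 score of the 6 (1569.8) with a Med12 score of 65.3.

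Sequence motifs other than that of Gli showed similar or mixed shares. The E-box CATCTG, of the kind bound by Hand2, was present in 60% of the 95 RNAP2 windows and 47.2% of the whole list, and in 54.5% of the 22 Med12 windows and 52.7% of the whole list. CAATAAAA, of the kind bound by posterior Hox proteins, was present in 10.5% of the RNAP2 windows and 8.49% of the list, and in 4.55% of the Med12 windows, 1 at Hand2, and 13.6% of the list. The windows were 1000 bp at peak centres, both strands were searched, and these motifs do not overlap that of Gli in their letters.

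Among other genes of the pathway, co-receptors had more shared distal sites than ligands or transducers. Of 28 symbols listed, 27 were found. RNAP2 lay at the start of 17 of 27 (40% of all genes), Med12 at 3 of 27 (8.2% of all genes), and 11 of 27 had a shared distal site (12.8% of all genes), 22 sites in all. The RNAP2 start peaks of Hhat and Prkaca lay under a score of 50, the limit that the methods name. The 7 ligand genes held 4 of these and the 16 transducer genes 5. The co-receptor genes held 13, 5 at Boc, 5 at Cdon and 3 at Gas1, all of which encode Hedgehog-binding proteins that assist Ptch1. Gas1 also had RNAP2 at the start with a score of 3100 and Med12 with 434. Boc and Cdon had start scores of 420 and 446 for RNAP2 and no Med12. Of 7 genes for ligands or their release, Hhat (40.02) and Scube1 (59.4) had RNAP2 at the start, while Shh, the ligand of the limb bud, had neither list at its start and 1 RNAP2 peak in its window. Of 16 transducer genes, 12 had RNAP2 at the start. Their scores ran from 44.1 for the protein kinase A subunit gene Prkaca to 2346 for Gsk3b, with Sufu, whose protein holds Gli factors in the cytoplasm, at 111 and Kif7 at 238. The others were Stk36, Spop, Btrc, Prkacb, Csnk1a1, Kif3a, Ift88 and Arl13b. Med12 was at the starts of Gsk3b (96.9) and Spop (53.0) among them.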

How the data were processed

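RNAP2 and Med12 were profiled by ChIP-seq in 1 library each. The authors mapped reads to mm9 with Bowtie and called peaks with MACS 1.4.1, and whether the input served as control is not stated in the sources used here. The deposited value of a peak is the score MACS wrote, which is 10 times −log10 of the p-value. Scores depend on depth and width, and the lists hold no counts. The lists reach a p-value of 0.0001, although the methods name a threshold of 1e-05, a score of 50, and 13 of the 95 RNAP2 peaks (9 at Gli3) and 3 of the 22 Med12 peaks described lie under it.

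Peaks were assigned to GENCODE vM1 genes with Python 3.11.15, numpy 2.4.6 and pandas 2.3.3 by an overlap of at least 1 bp, and the same rule was applied to every protein-coding gene. Starts are the outermost annotated start, 1 kb on each side. Wilson intervals came from scipy 1.17.1, and sequences from the mm9 genome with pysam 0.24.0. The classification was tested on simulated peaks. Named are the 7 genes, with each start peak, each shared distal site and the highest distal peak found in 1 list only, and pathway genes with a start peak. Names outside this rule were chosen after their values were seen. The members, lists and measures were chosen with earlier results of these data known. Alternatives were score minima of 50 and 100, windows of 50 and 200 kb, a 5 kb start interval, any coding transcript start, peak centres, distal by the own start only and a 50% overlap, and, chosen after seeing the data, leaving out Gli3. The result for 1 pathway gene is not reported here.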

Additional observations from a re-analysis of the deposited data

How the results depend on the processing

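Over 48 results and 10 alternatives, 254 of 323 values stayed within 1.5 times the value reported and 69 moved. At a score of at least 100, the 7 windows held 55 RNAP2 and 7 Med12 peaks, 42 and 3 of them distal, with 2 shared distal sites. Without Gli3, an alternative chosen after seeing the data, there were 32 RNAP2 peaks, 19 distal RNAP2 peaks, 9 distal Med12 peaks and 3 shared sites. A start interval of 5 kb left 4 shared sites, 3 at Gli3 and 1 at Ptch1. Med12 lay at the start of 6 genes with a start interval of 5 kb and of 4 (Ptch1, Gli1, Gli2 and Hand2) when the start of any coding transcript counted. RNAP2 remained at the start of 5 genes by peak centre, which loses Gli3, and of 5 at a score of at least 100, which loses Hhip. Values for single genes or for all genes moved 58 times of 271, 18 upwards and 40 downwards. RNAP2 peaks covered 53.9% of Gli3 at a score of at least 50 and 45.6% at 100, rank 3 of the long genes in both. At a score of at least 100, 2 genes including Gli3 had as many distal RNAP2 peaks. When distal meant only away from the own start, Gli1 had 5 distal RNAP2 and 2 distal Med12 peaks, and Smo had 1 distal RNAP2 peak. Both genes had none in the main setting. The alternatives use other peaks, genes, intervals or definitions, and why single values moved was not tested.

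Each antibody has 1 library, so leaving out a replicate was not possible and differences between genes have no replicate error. No paired analysis was possible because there are no replicates. Absence from a list means no peak past its p-value and not absence of binding. Scores at or near the lowest value of 40 were the least certain, and whole distal forelimbs were used without sorting.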
